A study of Danio rerio with 32 samples.

Results

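The genes described here build or regulate the mineralised matrix of bone and the extracellular matrix of cartilage, with collagens left aside. The list held 10 zebrafish symbols, and a gene was taken as a member where its Ensembl symbol matched a listed one without regard to case. Of the 10, 9 were found among the 32520 genes of the count files. They are runx2b (ENSDARG00000059233), sp7 (ENSDARG00000019516), bglap (ENSDARG00000058414), bglapl (ENSDARG00000104467), spp1 (ENSDARG00000044276), sparc (ENSDARG00000019353), phex (ENSDARG00000062363), matn1 (ENSDARG00000030215) and acana (ENSDARG00000035891). The symbol sox9a was not matched, because the gene table writes SOX9 for 2 genes and neither could be assigned to it.

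Osteoblasts, the cells that lay down bone, depend on the transcription factors Runx2 and Sp7, with Sp7 acting downstream of Runx2. They secrete a matrix that holds osteocalcin, osteopontin and osteonectin, proteins that bind mineral, cells or collagen. Chondrocytes, the cells of cartilage, secrete a matrix of aggrecan and matrilins. In young fish both tissues grow together as the larval skeleton ossifies.

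The RNA was that of whole larvae 20 days old, with no bone or cartilage dissected, and gave 32 libraries in 2 experiments. The first experiment held larvae with the pllp mutation pd1116, larvae with the pllp mutation pd1245, and larvae of EK without a listed mutation, each on Low Protein (LP) or High Protein (HP) feed, with 3 libraries in each of the 6 groups. The second experiment, marked FigureS7 in the labels, held the pd1245 line that the submitters call adapted and EK on the same feeds, with 4 libraries per LP group and 3 per HP group. The submitters describe pd1116 as an older mutation whose survival defect on restricted food had adapted, and pd1245 as a newer one with that defect. How many larvae went into a library, and from which tanks or clutches, is not stated, so the p-values measure the spread between these libraries, which may be technical. The experiments used different library kits and were analysed apart.

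Counts per library ran between 19838912 and 29147958 in the first experiment and between 3713048 and 12929536 in the second. Replicate 3 of pd1245 on LP stood apart: 14.82% of its counts fell on ribosomal protein genes, against at most 9.317% in the other 17 libraries of that experiment, and its TMM scaling factor was 0.8317. It was the lowest of all 18 libraries for 6 of the 8 members tested. How many of all genes were lowest in it was not counted, so this is not shown to be particular to the members. The library is given apart below. The mutated gene pllp, which encodes the membrane protein plasmolipin, averaged 7.13 CPM (the count scaled to a TMM-adjusted library size) in pd1116 LP, 6.81 in pd1116 HP, 5.50 in pd1245 LP and 9.54 in pd1245 HP, against 15.1 in EK LP and 11.9 in EK HP. In the second experiment it averaged 6.90 CPM in adapted LP and 6.60 in adapted HP, against 30.7 in EK LP and 32.8 in EK HP.

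A difference is called where its adjusted p (edgeR quasi-likelihood test, Benjamini-Hochberg over all genes tested) is under 0.05. In the first experiment 22742 genes were tested, with 8 members among them, and in the second 16671, with 7 members. bglap, an osteocalcin gene, was too low to test in either: it gave 6 counts over 18 libraries and 1 count over 14. runx2b was too low in the second experiment, with 31 counts spread over 11 of 14 libraries.

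Of the 2 transcription factors of the osteoblast lineage, sp7 fell in pd1245 larvae on LP relative to EK. For runx2b the call there depended on the test and on the libraries included. sp7 stood at 4.36, 5.85 and 4.71 CPM in pd1116 LP libraries, against 9.99, 10.7 and 9.34 in pd1116 HP libraries. In pd1245 larvae it stood at 2.87 and 3.05 CPM on LP, with 0.904 in replicate 3, against 6.72, 3.46 and 5.27 on HP. EK larvae held 6.80, 6.40 and 5.93 CPM on LP, against 4.84, 9.49 and 9.90 on HP. All 3 pd1245 LP libraries were below all 3 EK LP libraries. On LP sp7 fell in pd1245 relative to EK (log2 fold change −1.43, SE 0.32, adjusted p = 0.00247), and did so without replicate 3 as well (−1.11, adjusted p = 0.00546). In whole larvae, fewer cells of a type and less RNA per cell cannot be told apart.

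The sp7 differences between diets and between mutants changed with the libraries included. LP lowered sp7 in pd1116 (−1.01, SE 0.28, adjusted p = 0.0388) and in pd1245 (−1.13, SE 0.32, adjusted p = 0.0206), and pd1116 exceeded pd1245 on LP (1.07, adjusted p = 0.0261) and on HP (0.95, adjusted p = 0.0332). Without replicate 3 of pd1245 on LP, the diet difference in pd1245 was −0.81 (adjusted p = 0.0625) and the difference between mutants on LP was 0.75 (adjusted p = 0.0836), so both calls were lost. Fits of only the groups compared lost them as well (adjusted p = 0.168 and 0.135). The call on LP was also lost without replicate 2 or 3 of pd1116 LP, the diet call in pd1245 also without replicate 1 or 3 of pd1245 HP, and the diet call in pd1116 was kept in 10, and that between mutants on HP in 13, of the 18 fits that left out 1 library.

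runx2b, which acts upstream of Sp7, stood at 4.10 and 4.09 CPM in pd1245 LP, with 1.02 in replicate 3, against 6.64, 4.28 and 4.59 CPM in EK LP. The difference was not called by edgeR (−0.71, SE 0.30, adjusted p = 0.0804). DESeq2 called it (−0.73, adjusted p = 0.0438), as did edgeR with the replicate block (−0.76, adjusted p = 0.0473) and without replicate 1 or 2 of pd1245 LP (−0.95 in each). The remaining runx2b groups averaged 5.08 ± 0.547 CPM in pd1116 LP, 7.72 ± 1.33 in pd1116 HP and 5.36 ± 0.475 in pd1245 HP (SD, n = 3 each), against 6.24, 9.18 and 7.20 CPM in the EK HP libraries, and edgeR with all libraries in 1 fit called runx2b in no comparison. DESeq2 also called it for LP against HP in pd1245 (−0.78, adjusted p = 0.0416), and edgeR fits of only the groups compared called it for LP against HP in pd1116 (−0.62, adjusted p = 0.0181) and for pd1116 against pd1245 on HP (0.53, adjusted p = 0.0252). Without replicate 3 of pd1245 on LP, runx2b passed for LP against HP in pd1116 (−0.61, adjusted p = 0.0225) and for pd1116 against pd1245 on HP (0.53, adjusted p = 0.0325). In that edgeR fit pd1245 against EK on LP was −0.34 (adjusted p = 0.227), and LP against HP in pd1245 was −0.38 (adjusted p = 0.23). Neither was called.

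The osteocalcin-like gene bglapl showed the widest range of the members, 14.7-fold between its highest and lowest group means. It stood at 1.31, 3.81 and 2.76 CPM in pd1116 LP, against 20.8, 18.8 and 20.2 CPM in pd1116 HP. In pd1245 larvae it stood at 0.657 and 1.39 CPM on LP, with 2.03 in replicate 3, against 2.25, 1.51 and 3.13 CPM on HP. EK larvae held 7.98, 5.70 and 6.19 CPM on LP, against 13.1, 18.2 and 13.5 CPM on HP. Every pd1245 library was thus below every EK library on the same diet, while the pd1116 libraries were all below those of EK on LP and all above them on HP. Replicate 3 was the highest of the pd1245 LP libraries for this gene.

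**Figure D1:**
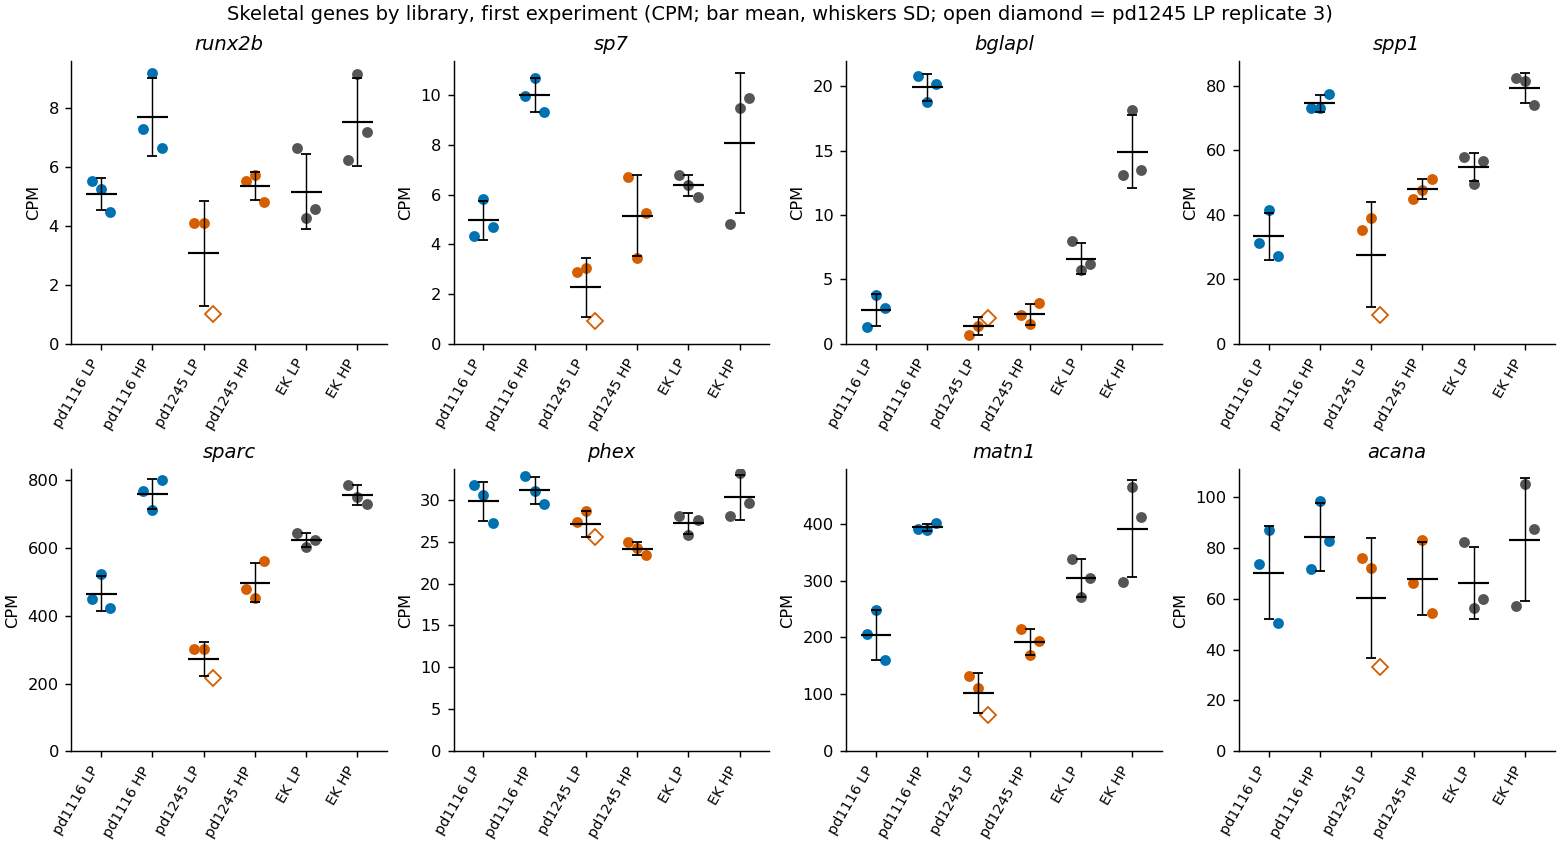
Each panel gives 1 member of the first experiment, with CPM on the vertical axis and the 6 groups on the horizontal axis (blue pd1116, orange pd1245, grey EK); points are libraries, the bar is the mean and whiskers are SD. bglapl spans 0.657 to 20.8 CPM, and the open diamond, replicate 3 of pd1245 on LP, is lowest of 18 libraries in 6 of the 8 panels.

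The fold changes of bglapl follow from these values. pd1245 was lower than EK on LP (log2 fold change −2.33, SE 0.34, adjusted p = 0.000104; −2.68 without replicate 3) and on HP (−2.68, SE 0.29, adjusted p = 4.5e-05). pd1116 was lower than EK on LP (−1.33, SE 0.30, adjusted p = 0.0109), a call lost without replicate 1 of EK LP (adjusted p = 0.0542) or of pd1116 LP (0.0523), while on HP the difference was 0.41 (adjusted p = 0.541). pd1116 exceeded pd1245 on HP by 3.09 (SE 0.29, adjusted p = 1.2e-06). On LP that difference was 1.00 (adjusted p = 0.0614), and 1.35 (adjusted p = 0.0320) without replicate 3.

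Low protein lowered bglapl in pd1116 (−2.92, SE 0.29, adjusted p = 2.28e-05). The diet differences were −0.83 (adjusted p = 0.119) in pd1245 and −1.18 (adjusted p = 0.0961) in EK, and that in EK passed without replicate 3 of pd1245 on LP (−1.17, adjusted p = 0.0194). Without that library the diet difference in pd1245 was −1.18 (adjusted p = 0.0624). The difference in diet response was not called between pd1116 and EK (−1.74, adjusted p = 0.147) or between pd1116 and pd1245 (−2.10, adjusted p = 0.0541). Without replicate 3 the pd1116 against EK difference passed (−1.75, adjusted p = 0.0266), while that of pd1116 against pd1245 was −1.74 (adjusted p = 0.119). In order of mean level the groups ran pd1245 LP, pd1245 HP, pd1116 LP, EK LP, EK HP, pd1116 HP; of the neighbours, pd1116 LP and EK LP differed by the test. The differences between pd1245 LP and HP, EK LP and HP, and pd1116 HP and EK HP were not called, and pd1245 HP and pd1116 LP overlapped in their libraries.

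spp1 encodes osteopontin, a secreted phosphoprotein that binds mineral and integrins. It stood at 31.2, 41.4 and 27.3 CPM in pd1116 LP, against 73.0, 73.3 and 77.6 CPM in pd1116 HP. In pd1245 larvae it stood at 35.2 and 38.9 CPM on LP, with 8.87 in replicate 3, against 45.0, 47.7 and 51.1 CPM on HP. EK larvae held 58.0, 49.7 and 56.8 CPM on LP, against 82.5, 81.5 and 74.1 CPM on HP. All LP libraries lay below all HP libraries within each line. spp1 was called lower in pd1245 than in EK on LP (−0.97, SE 0.30, adjusted p = 0.0183) and in pd1116 on LP than on HP (−1.17, SE 0.30, adjusted p = 0.0237). The first call was lost without replicate 1 of EK LP (adjusted p = 0.0507) and in a fit of only the groups compared (−0.98, adjusted p = 0.157), and the second was kept in 13 of the 18 fits that left out 1 library.

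The spread of spp1 depended on replicate 3 of pd1245 on LP. Without it the SE of the pd1245 HP against EK HP difference was 0.11, against 0.29 with it, and 5 further differences passed. These were pd1245 against EK on HP (−0.72, adjusted p = 0.000345), pd1116 against EK on LP (−0.72, adjusted p = 0.000310), pd1116 against pd1245 on HP (0.64, adjusted p = 0.000399), LP against HP in EK (−0.53, adjusted p = 0.0311) and the diet response of pd1116 against that of pd1245 (−0.80, adjusted p = 0.0305). The pd1245 against EK difference on LP was then smaller, −0.57 (adjusted p = 0.00276).

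sparc encodes osteonectin, a collagen-binding glycoprotein of bone and many connective tissues. Libraries of pd1116 held 449, 523 and 423 CPM on LP, against 768, 711 and 800 CPM on HP. Libraries of pd1245 held 303 and 302 CPM on LP, with 216 in replicate 3, against 479, 452 and 562 CPM on HP. EK libraries held 645, 603 and 624 CPM on LP, against 787, 752 and 731 CPM on HP. The pd1245 libraries lay below the EK libraries on both diets and below the pd1116 libraries on both diets, without overlap.

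sparc was called in 7 comparisons of the first experiment. It was lower in pd1245 than in EK on LP (−1.19, SE 0.13, adjusted p = 1.6e-05) and on HP (−0.60, SE 0.13, adjusted p = 0.00927), the HP call being lost without replicate 2 of pd1245 HP (adjusted p = 0.0680). It was lower in pd1116 than in EK on LP (−0.42, SE 0.13, adjusted p = 0.0490), a call kept in 5 of the 18 fits that left out 1 library. LP lowered it in pd1116 (−0.71, adjusted p = 0.00258) and in pd1245 (−0.86, adjusted p = 0.000872), and pd1116 exceeded pd1245 on LP (0.76, adjusted p = 0.000627) and HP (0.61, adjusted p = 0.00353). The diet response of pd1245 against that of EK was −0.58 (adjusted p = 0.0580), and −0.45 (adjusted p = 0.0491) without replicate 3. Without that library sparc was −1.05 in pd1245 against EK on LP (adjusted p = 3.32e-06) and −0.72 for diet in pd1245 (adjusted p = 0.000654). In pd1116 against pd1245 on LP it was 0.62 (adjusted p = 0.000443). The calls of pd1116 against pd1245 on LP (adjusted p = 0.0561) and of diet in pd1245 (adjusted p = 0.099) were lost in fits of only the groups compared.

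phex encodes an endopeptidase of bone cells whose loss in mammals leads to phosphate wasting. Its highest and lowest group means differed 1.29-fold. It stood at 24.9, 24.2 and 23.4 CPM in pd1245 HP, against 28.0, 33.2 and 29.6 CPM in EK HP, and was called lower (−0.33, SE 0.09, adjusted p = 0.0429), a call kept in 6 of the 18 fits that left out 1 library. On LP the libraries of pd1245 and EK overlapped, at 27.3 and 28.6 CPM with 25.5 in replicate 3, against 28.1, 25.8 and 27.6 CPM, and the log2 fold change was 0.00 (adjusted p = 1.0). pd1116 exceeded pd1245 on HP (0.36, SE 0.09, adjusted p = 0.0106), with 32.8, 31.0 and 29.5 CPM in pd1116 HP, a call lost without replicate 1 of pd1116 HP (adjusted p = 0.0545).

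Of the cartilage members, matn1 encodes matrilin-1, an adapter protein of the cartilage matrix, and was low in pd1245 larvae on both diets. Libraries of pd1116 held 206, 248 and 160 CPM on LP, against 391, 389 and 401 CPM on HP. Libraries of pd1245 held 133 and 111 CPM on LP, with 63.2 in replicate 3, against 214, 169 and 193 CPM on HP. EK libraries held 338, 271 and 305 CPM on LP, against 298, 464 and 411 CPM on HP. The pd1245 libraries were below those of EK and of pd1116 on the same diet, without overlap.

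matn1 fell in pd1245 relative to EK on LP (−1.57, SE 0.21, adjusted p = 6.97e-05) and on HP (−1.03, SE 0.21, adjusted p = 0.00844), the HP call being lost without replicate 2 of EK HP (adjusted p = 0.0585) or of pd1245 HP (0.0603). It was 1.00 higher in pd1116 than in pd1245 on LP (adjusted p = 0.00396) and 1.04 higher on HP (adjusted p = 0.00320). LP lowered it in pd1116 (−0.94, adjusted p = 0.0119; 0.0694 without replicate 3 of pd1116 LP) and in pd1245 (−0.91, adjusted p = 0.00848). The pd1116 against EK difference on LP was −0.57 (adjusted p = 0.113), and −0.58 (adjusted p = 0.0157) without replicate 3 of pd1245 on LP. Without that library matn1 changed less in the comparisons that use pd1245 LP, and stayed called. It was −1.33 in pd1245 against EK (adjusted p = 5.32e-05) and 0.75 in pd1116 against pd1245 (adjusted p = 0.00735). For diet in pd1245 it was −0.66 (adjusted p = 0.0192). Fits of only the groups compared, with all their libraries, lost 2 calls of matn1. These were pd1116 against pd1245 on LP (adjusted p = 0.0886) and diet in pd1245 (adjusted p = 0.13).

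acana, the gene of aggrecan, the large proteoglycan of cartilage, was called by edgeR in none of the 17 comparisons. It stood at 75.9 and 72.1 CPM in pd1245 LP, with 33.3 in replicate 3, against 82.5, 56.5 and 60.0 CPM in EK LP, and its log2 fold change was −0.13 (SE 0.27, adjusted p = 0.744). Without replicate 3 that change was 0.15 (adjusted p = 0.666). The groups of the first experiment averaged between 60.4 ± 23.5 CPM in pd1245 LP and 84.3 ± 13.4 CPM in pd1116 HP (SD, n = 3 each). Of the 2 genes written SOX9, which are not members, ENSDARG00000003293 was lower in pd1245 than in EK on LP (−0.60, adjusted p = 0.0401), a call lost without replicate 3 (−0.33, adjusted p = 0.133). The other, ENSDARG00000043923, was not called there (−0.30, adjusted p = 0.251). In the second experiment ENSDARG00000003293 had the opposite sign in adapted LP against EK LP, without a call (0.72, adjusted p = 0.277).

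The share of all genes called is set beside the counts here and below. These shares are those of the edgeR fit with all libraries, so counts with 1 library left out have no matching share beside them. Members and lists were chosen with earlier results of these data known, so a count above that share is not a test of enrichment. Set by comparison, the members called in pd1245 against EK were as follows. On LP, 5 of 8 members fell (bglapl, sp7, spp1, sparc, matn1) and none rose, where 15.8% of all genes tested were called lower; the 5 also fell without replicate 3. A fit of only the groups compared called 4 members in pd1245 against EK on LP and 4 in pd1116 against EK on LP. The median log2 fold change of the 8 was −1.08, and −0.81 without replicate 3, against 0.01 over all genes. On HP, 4 of 8 fell (bglapl, sparc, matn1, phex) and none rose, where 2.54% of all genes were called lower, with medians of −0.62 for the members and −0.00 for all genes. The count on HP was 1 without replicate 2 of pd1245 HP and 2 without replicate 2 of EK HP. The comparisons with EK share the EK libraries.

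In pd1116 against EK on LP, 2 of 8 members fell (bglapl, sparc), where 3.86% of all genes were called lower. The count was 4 without replicate 3 of pd1245 LP, 0 without replicate 1 of pd1116 LP or of EK LP, and 1 without any of the 3 HP libraries of pd1116 or of EK, replicate 1 or 2 of pd1245 HP, replicate 3 of pd1116 LP, or replicate 2 or 3 of EK LP, each left out alone. On HP edgeR called 0 of 8 members, where 2.9% of all genes were called in either direction. Of the 8, 0 had an unadjusted p under 0.05, against 3030 of the 22742 genes tested, and DESeq2 called 0. Between the mutants, pd1116 exceeded pd1245 for 3 of 8 members on LP (sp7, sparc, matn1), where 9.89% of all genes were called higher, and for 5 of 8 on HP (bglapl, sp7, sparc, matn1, phex), where 5.96% were. The HP count was 7 without replicate 3 of pd1245 LP and 3 without replicate 1 of pd1116 HP. Counts over all genes, in either direction, moved as well when 1 library was left out. They ran from 752 to 2968 in pd1116 against EK on LP (1519 with all libraries). In pd1116 against pd1245 on HP they ran from 1549 to 4557 (2699 with all libraries).

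**Figure D2:**
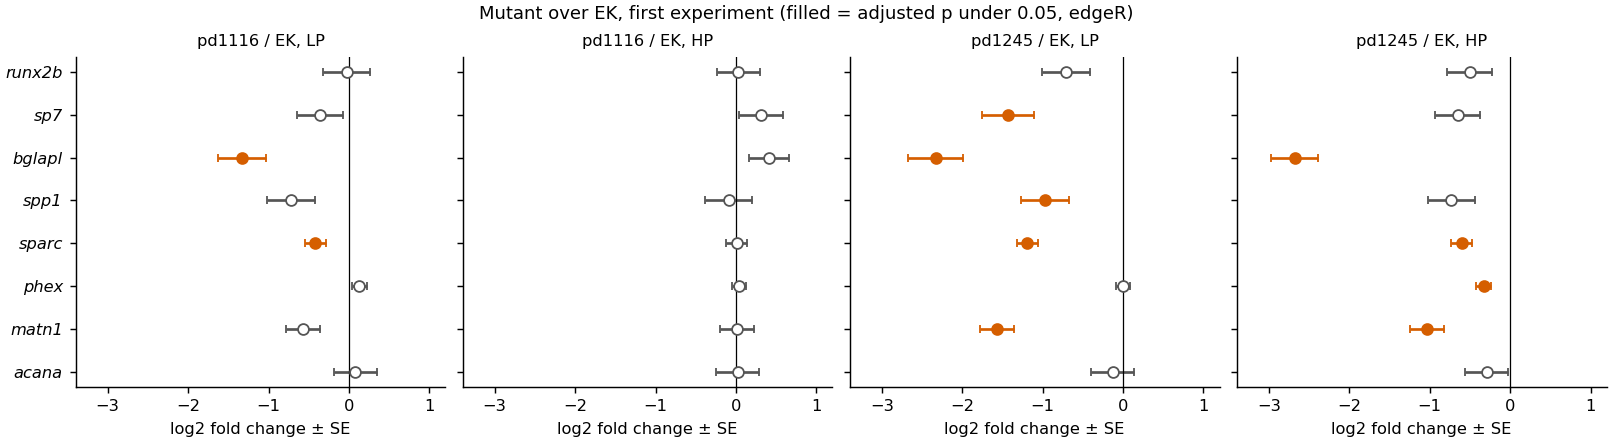
Log2 fold changes ± SE of 8 members in mutant over EK larvae of the first experiment, on the horizontal axis, with 1 panel per mutant and diet; filled points are called. The pd1245 panels hold 5 filled points on LP and 4 on HP, all left of zero, while pd1116 holds 2 on LP and none on HP.

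Within lines, LP against HP lowered 5 of 8 members in pd1116 (bglapl, sp7, spp1, sparc, matn1), where 4.04% of all genes were called lower, and 3 of 8 in pd1245 (sp7, sparc, matn1), where 9.78% were. The pd1116 count was 2 without replicate 3 of pd1116 LP, and 3 without replicate 1 of pd1116 LP or without any 1 of the 3 pd1116 HP libraries. The pd1245 count was 5 without replicate 1 or 2 of pd1245 LP, and 2 without replicate 3. Some markers of other tissues fell in the same comparisons, and their part was not tested: in pd1116, 2 of 5 tendon and fibroblast markers (LUM, −0.73, and TNMD, −0.52), 2 of 13 macrophage markers (cd74a, −1.31, and cd74b, −1.19) and 1 of 9 osteoclast markers, and in pd1245 the same 4 genes and 2 of 9 osteoclast markers. Of 10 fast muscle markers, 2 rose in pd1245 (ckma, 0.90, and ckmb, 0.74) and 0 fell, while 0 were called in pd1116. Without replicate 3 of pd1245 LP, 1 rose and 1 fell in pd1245, and 1 rose and 3 fell in pd1116. The tendon and fibroblast markers summed to 271 to 315 CPM in pd1116 LP, against 346 to 380 CPM in pd1116 HP, and the macrophage markers to 38.4 to 51.9 CPM, against 57.3 to 81.9 CPM. A fit of only the 6 pd1245 libraries called 0 members and 0 of all genes in that pd1245 comparison. In EK, 0 of 8 were called by edgeR, where 0.154% of all genes were called in either direction. Of the 8, 2 had an unadjusted p under 0.05, as did 1796 of the 22742 genes tested, and DESeq2 called 1. Of the pd1245 LP libraries, leaving out replicate 1 gave 1 call in EK and leaving out replicate 3 gave 2. The log2 fold changes in EK ran between −1.18 for bglapl and −0.16 for phex, so all 8 were below zero. Over all genes the median was −0.0, and the share of all genes below zero was not counted. The 8 values come from the same libraries, so their shared sign is not a test of diet.

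**Figure D3:**
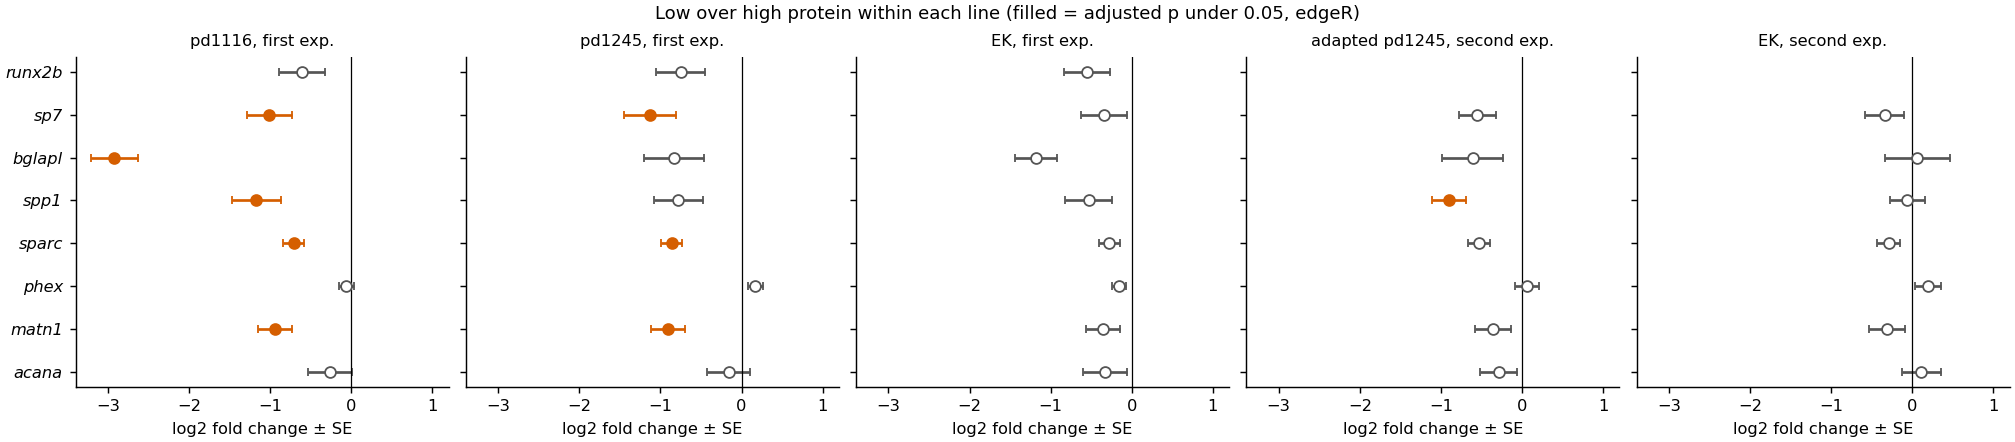
Log2 fold changes ± SE of the members for LP over HP, on the horizontal axis, in each line of both experiments; filled points are called. Filled points number 5 in pd1116, 3 in pd1245, 0 in EK of the first experiment, 1 in the adapted line and 0 in EK of the second.

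With all libraries, no member had a called difference in diet response. Of all genes, 5.7% were called for pd1245 against EK, 0.0044% for pd1116 against EK and 0.616% for pd1116 against pd1245. Members with an unadjusted p under 0.05 numbered 2, 2 and 1 in these comparisons, and DESeq2 called 1 in each. Of the 22742 genes tested, 5515, 2600 and 3595 had such an unadjusted p. Without replicate 3 of pd1245 on LP, edgeR called 1 in each, sparc for pd1245 against EK, bglapl for pd1116 against EK and spp1 for pd1116 against pd1245. It also called 1 for pd1245 against EK without replicate 1 or 2 of pd1245 LP or replicate 2 of pd1245 HP, and 1 for pd1116 against pd1245 without replicate 2 of pd1116 LP or replicate 1 of pd1245 LP. In the edgeR fit with all libraries, a diet difference called in pd1116 and not in EK is therefore not shown to differ between them. For bglapl this depended on the fit, since DESeq2 called the response of pd1116 against EK (−1.76, adjusted p = 0.00946). An edgeR fit of only the groups compared called it as well (−1.75, adjusted p = 0.0108), together with spp1 (−0.65, adjusted p = 0.0462).

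**Figure D4:**
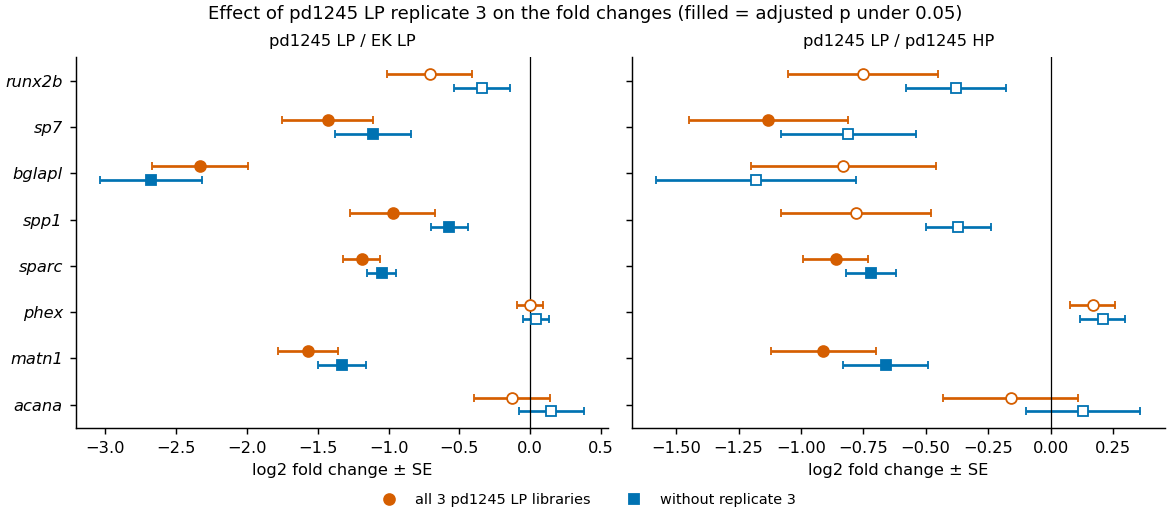
Log2 fold changes ± SE of 8 members on the horizontal axis, for pd1245 LP over EK LP (left) and over pd1245 HP (right), with all 3 pd1245 LP libraries (orange) and without replicate 3 (blue); filled points are called. On the left the same 5 members are filled in both fits, and on the right sp7 is filled only with replicate 3 included.

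In the second experiment no member was called between the adapted pd1245 line and EK. bglapl stood at 31.9, 8.90, 5.89 and 14.3 CPM in adapted LP, against 13.3, 12.2, 21.5 and 27.0 CPM in EK LP. On HP it stood at 24.0, 20.8 and 26.0 CPM in the adapted line, against 14.3, 19.6 and 19.4 CPM in EK. The LP libraries overlapped (−0.25, SE 0.36, adjusted p = 0.946), while on HP the adapted libraries were all above those of EK without being called (0.42, SE 0.42, adjusted p = 0.696). A difference from the first experiment was not tested, since the kits differ.

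spp1 stood at 49.4, 27.2, 23.0 and 36.3 CPM in adapted LP, against 63.1, 64.8 and 63.2 CPM in adapted HP. All 4 LP libraries were below the HP libraries, and it was the 1 member of 7 called in the diet comparison of the adapted line (−0.90, SE 0.21, adjusted p = 0.0372), where 0.78% of all genes were called lower. The call was kept in 8 of the 14 fits that left out 1 library. In EK it stood at 30.3, 30.7, 36.4 and 52.7 CPM on LP, against 36.2, 37.9 and 42.8 CPM on HP, and the groups overlapped. On HP the adapted libraries lay above those of EK (0.71, SE 0.23), but the difference was not called (adjusted p = 0.170).

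Of the 7 members, edgeR called 0 for the adapted line against EK on LP, where 2.36% of all genes were called in either direction, and 0 on HP, where 1.44% were. The members with an unadjusted p under 0.05 numbered 0 on LP and 1 on HP, and DESeq2 called 0 on each. Of the 16671 genes tested, 1806 had such a p on LP and 2274 on HP. For LP against HP in EK, edgeR called 0, with 0 at an unadjusted p under 0.05 and 0 by DESeq2, where 0.078% of all genes were called. An unadjusted p under 0.05 was held there by 1910 of all genes. The diet response of the adapted line against that of EK gave 0 members called (1 at an unadjusted p under 0.05, 0 by DESeq2) and 0.0% of all genes. Of all genes, 894 had an unadjusted p under 0.05 there.

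sparc stood at 721, 524, 513 and 657 CPM in adapted LP, against 956, 850 and 804 CPM in adapted HP. Its diet difference was −0.53 (SE 0.14, adjusted p = 0.0594 by edgeR and 0.0161 by DESeq2). sp7 stood at 3.11, 1.73, 2.62 and 2.80 CPM in adapted LP, against 4.67, 3.28 and 3.41 CPM in adapted HP, without overlap and without a call (−0.55, adjusted p = 0.199). matn1 ran between 62.4 and 90.1 CPM in adapted LP, against 52.0 to 126 CPM in EK LP, and phex between 20.7 and 25.1 CPM, against 18.8 to 21.7 CPM.

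**Figure D5:**
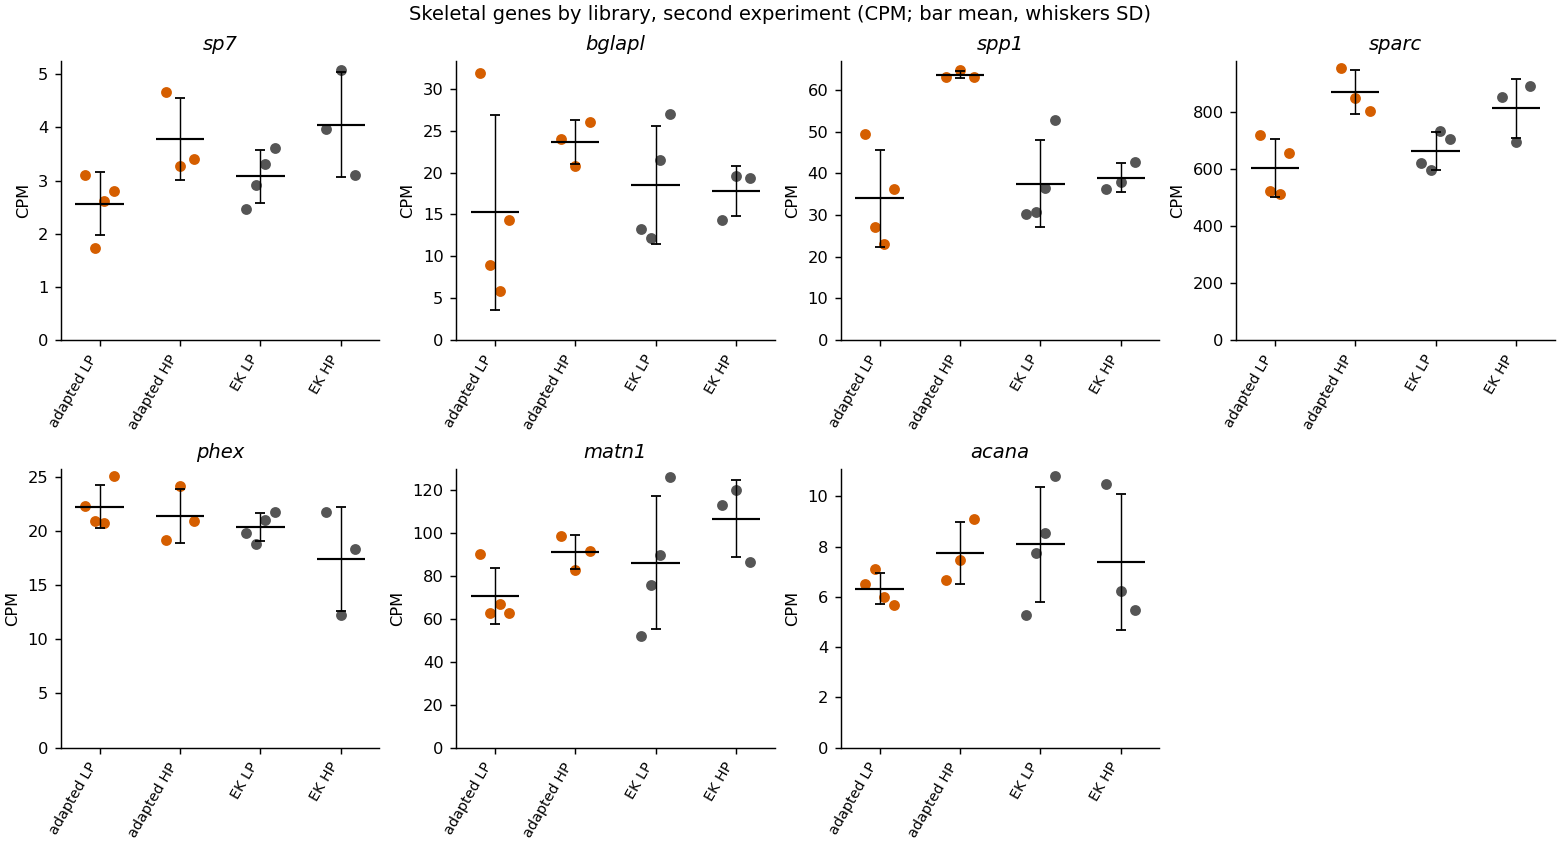
Each panel gives 1 of 7 members in the second experiment, with CPM on the vertical axis and the 4 groups on the horizontal axis (orange adapted pd1245, grey EK); points are libraries, the bar is the mean and whiskers are SD. spp1 of the adapted line lies between 63.1 and 64.8 CPM on HP, above its 4 LP libraries.

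Other genes of bone and mineral, from a list set beside the members, were also examined. Of 18 tested, 5 fell in pd1245 against EK on LP and none rose, with a median log2 fold change of −0.29, where 15.8% of all genes were called lower. Without replicate 3, 4 fell, with a median of −0.13, and 3 were called without replicate 1 of EK LP. Among the 5 were scpp1, of the secretory calcium-binding phosphoproteins, at 4.29 ± 2.02 CPM in pd1245 against 10.8 ± 2.39 CPM in EK (adjusted p = 0.00124), and PANX3, a pannexin channel of osteoblasts and chondrocytes, at 1.15 ± 0.782 CPM against 3.87 ± 0.819 CPM (adjusted p = 0.00127). On HP 1 rose and 1 fell, where 2.54% of all genes were called lower. The riser was fgf23, a hormone of phosphate balance, at 2.03 ± 0.373 CPM in pd1245 against 0.341 ± 0.0999 CPM in EK (2.56, adjusted p = 0.000427); the other was mgp, matrix Gla protein (−1.24, adjusted p = 0.0456), a call kept in 5 of the 18 fits that left out 1 library. Errors here are SD with n = 3, and the pd1245 LP means include replicate 3. When 1 library was left out, the log2 fold change on LP ran from −1.56 to −0.99 for scpp1. For PANX3 it ran from −2.13 to −1.30, and both calls were kept in all 18 fits.

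Of 21 cartilage genes, 6 fell and 1 rose in pd1245 against EK on LP, and 4 fell and none rose on HP; 15.8% of all genes were called lower on LP and 2.54% on HP. Without replicate 3 of pd1245 LP, 6 fell on each diet, and the HP count was 2 without replicate 2 of pd1245 HP or of EK HP. The 15.8% and 2.54% are those of the fit with all libraries. With 1 library left out, all genes called on HP in either direction ran from 379 to 2169. ucmaa, a Gla protein of cartilage, stood at 3.84 ± 0.400 CPM in pd1245 HP against 13.0 ± 1.11 CPM in EK HP (−1.75, adjusted p = 4.5e-05). snorc, a proteoglycan of cartilage, stood at 4.56 ± 1.28 CPM in pd1245 LP, replicate 3 included, against 11.6 ± 0.514 CPM in EK LP (−1.33, adjusted p = 4.77e-05). The log2 fold change of snorc ran from −1.49 to −1.14 when 1 library was left out. Within pd1116, LP lowered ucmaa to 4.13 ± 0.452 CPM, against 17.1 ± 3.46 CPM on HP (−2.04, adjusted p = 1.59e-05). It was 1 of 3 cartilage genes that fell, and none rose, where 4.04% of all genes were called lower. LP also lowered ucmaa in EK, to 6.53 ± 1.52 CPM against 13.0 ± 1.11 CPM on HP (−0.99, adjusted p = 0.0326). That call was kept in 14 of the 18 fits that left out 1 library. It was 1 of 21 cartilage genes called for diet in EK, where 0.154% of all genes were called. In pd1116 against EK, edgeR called 0 bone genes on either diet, with 4 at an unadjusted p under 0.05 on each, while DESeq2 called 1 on each. Of all genes, edgeR called 3.86% lower there on LP, and 2.9% in either direction on HP. An unadjusted p under 0.05 was held by 4810 of the 22742 genes tested on LP and by 3030 on HP. Without replicate 3 of pd1245 LP, edgeR called 2 bone genes lower on LP and 1 on HP. Of the cartilage genes, 2 fell on LP in pd1116 against EK, a count that ran from 0 to 2 when 1 library was left out and was 0 without replicate 3 of pd1116 LP. On HP edgeR and DESeq2 called 0 cartilage genes, with 3 at an unadjusted p under 0.05. In the second experiment edgeR called 0 of 12 bone and 0 of 16 cartilage genes in each of the 5 comparisons, with 0 to 4 at an unadjusted p under 0.05. Over all genes, 894 to 3276 of the 16671 tested had such a p in these comparisons. The largest share of all genes called in these was 2.36%, for the adapted line against EK on LP, so counts of 0 lie near the shares. DESeq2 called 1 bone gene for diet in EK and 1 cartilage gene for diet in the adapted line.

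Markers of other tissues moved in the same comparisons, and their part in the results was not tested. Of the 22742 genes tested in pd1245 against EK, 15.8% were called lower on LP and 2.54% on HP. Those called higher numbered 3639 on LP and 370 on HP. All markers found had counts, but not every listed symbol was found. Found were 10 of 15 fast muscle, 5 of 8 tendon and fibroblast and 10 of 13 osteoclast symbols, with 19 of 26 bone and 21 of 32 cartilage symbols. The macrophage list of 9 symbols gave 15 genes, because mfap4 matched 8, while mpeg1.1 was not found. In pd1245 HP the 10 fast muscle markers summed to 28400 to 37500 CPM, against 47400 to 54900 CPM in EK HP, with 4 of 10 called lower, and the 5 tendon and fibroblast markers to 263 to 298 CPM, against 346 to 381 CPM, with 2 of 5 lower. In pd1245 LP the tendon and fibroblast markers summed to 217 to 232 CPM, with 125 in replicate 3, against 284 to 316 CPM in EK LP, and 3 of 5 were lower. Fast muscle markers summed to 32900 to 34900 CPM there, with 50300 in replicate 3, against 35100 to 40200 CPM, with 2 of 10 higher and 3 lower. Osteoclast markers gave 3 of 9 lower and 1 higher on LP and 1 of 9 lower on HP, and macrophage markers 2 of 13 and 1 of 13 lower. The 2 of 13 on LP lie near the share over all genes. Without replicate 3, 1 of 10 osteoclast markers was lower and 2 were higher on LP, 2 of 13 macrophage markers were lower and 1 was higher on LP, and 7 of 10 fast muscle markers and 3 of 5 tendon and fibroblast markers were lower on HP. When 1 library was left out, all genes called on HP in either direction ran from 379 to 2169, against 947 with all libraries.

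The members were compared with each other and with other genes by the root mean square difference of their centred log2 group means over the 6 groups of the first experiment, a description without a test whose groups share libraries. The pd1245 LP means in this measure include replicate 3, and likeness without it is not given. The most alike members were acana and phex (0.142), sparc and runx2b (0.146) and sp7 and matn1 (0.15). acana and phex varied little, with highest and lowest group means 1.4-fold and 1.29-fold apart. In the second experiment acana and phex were at 0.202, while sp7 and matn1 were the nearest pair, at 0.0541. Among 15139 genes, those nearest to bglapl were mfap4.6, CRYBB2, COL10A1, zgc:172323 and adh8a, at 0.204 to 0.315, where the median gene was at 1.32. Those nearest to matn1 were LOXL2, COL9A1, HYAL4, tubb5 and COL1A2, at 0.0367 to 0.097, where the median gene was at 0.703.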

How the data were processed

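The deposited raw counts of the first experiment were made by the authors with Trim Galore 0.6.5, STAR 2.7.3a and HTSeq 0.11.1, and the deposited expected counts of the second with fastp 0.24.0, STAR 2.7.11 and featureCounts of Subread 2.1.1, both on GRCz11, per the submitters' processing notes. The annotation release and strand setting are not given in the sources used here, so reads of overlapping or antisense genes may be shared. Per the labels, libraries of the first experiment were strand-specific (dUTP) and made from poly(A) RNA, and those of the second were stranded with molecular identifiers; whether these were collapsed is not stated. In the second, 78.32 to 84.85% of values above 0 were whole within 0.005, for a reason not stated, and all were rounded. Rows naming no gene (14.6172 to 16.7612% in the first experiment; 92 spike-in features, at most 0.0011%, in the second) were left out.

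Each experiment was fitted alone in R 4.3.3 with edgeR 4.0.16: TMM scaling, filterByExpr, all groups in 1 fit, quasi-likelihood F test, 2-sided, Benjamini-Hochberg over all genes tested, threshold 0.05. The SE of a log2 fold change was its size divided by the root of the F statistic. Alternatives were RLE scaling, no filter, DESeq2 1.42.0, a replicate block, only the groups compared, and leaving out each library. Library depths are given in the report, and the counting error they leave is part of the spread between libraries. Replicate numbers did not pair the libraries: in 0 of 15 pairs of groups and 0 of 6 did every matched pair correlate above 0.1. Likeness used log2(CPM + 0.5) and genes of at least 2 CPM.

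Symbols were matched through a gene table to Ensembl identifiers, with 29201 genes having one. Named genes are every member, pllp, up to 4 called genes of smallest p per list and comparison, and the 5 genes most like bglapl and matn1; not all are printed. The members and lists were chosen with earlier results of these data known. A table of variance-stabilised values was not used. Figures were drawn with matplotlib.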

Additional observations from a re-analysis of the deposited data

Results flagged for a closer look

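matn1 in replicate 1 of the adapted pd1245 larvae on LP stood at 90.1 CPM, against 62.4 to 66.8 CPM in the other libraries of the group. The gap made up 0.843 of the group's range, above the critical value for 4 libraries. In this way 14 sets of values, each of 1 member in 1 group, were examined. Chance flags about 1 in 20, so 1 flag among 14 may be chance.

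Among the listed bone, cartilage and osteoclast genes, 4 differences in diet response passed the edgeR test. For pd1245 against EK these were 1 of 18 bone, 0 of 21 cartilage and 2 of 9 osteoclast genes. Of all genes, 5.7% were called there. For pd1116 against pd1245 they were 0 of 18, 0 of 21 and 1 of 9, where 0.616% of all genes were called. An excess of the lists over these shares was not tested. The pd1245 LP means below include replicate 3. fgf23 averaged 1.11 CPM in pd1245 LP and 2.03 in pd1245 HP, against 1.15 in EK LP and 0.341 in EK HP, a difference in response of −2.59 on the log2 scale (adjusted p = 0.00735). acp5b, the tartrate-resistant acid phosphatase of osteoclasts, averaged 4.96 CPM in pd1245 LP and 9.35 in pd1245 HP, against 10.7 in EK LP and 9.12 in EK HP (−1.14, adjusted p = 0.00612). With 8.01 CPM in pd1116 LP and 7.65 in pd1116 HP, its response in pd1116 exceeded that in pd1245 by 0.99 (adjusted p = 0.0337), a call kept in 8 of the 18 fits that left out 1 library and lost with the replicate block and with only the groups compared. MMP9, a gelatinase of osteoclasts and other cells, averaged 44.4 CPM in pd1245 LP and 30.1 in pd1245 HP, against 21.8 in EK LP and 47.2 in EK HP (1.67, adjusted p = 0.0288), a call kept in 12 of the 18 such fits and lost with only the groups compared.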

How the results depend on the processing

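The 28 called member differences were recomputed under alternatives, giving 640 values, of which 565 kept the direction and the call, 75 kept the direction and lost the call, and 0 reversed; 10 of the 28 kept their call throughout. Leaving out 1 library, the number of members called ran from 4 to 6 in pd1245 against EK on LP, 1 to 5 on HP, 0 to 4 in pd1116 against EK on LP, 2 to 4 in pd1116 against pd1245 on LP and 3 to 7 on HP. It ran from 2 to 6 for diet in pd1116, 2 to 5 in pd1245, 0 to 2 in EK and 0 to 3 in the adapted line, and from 0 to 1 for each diet response of the first experiment. Without replicate 3 of pd1245 on LP it was 5, 5, 4, 3 and 7 for the first 5 of these, 6 for diet in pd1116 and 2 each for diet in pd1245 and in EK. The uncalled bglapl difference between adapted LP and EK LP ran from −0.91 to 0.00.

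Members called in pd1116 against EK on LP numbered 1 without a filter, 1 with the replicate block and 4 in a fit of only the groups compared, against 2. With only the groups compared they numbered 0 in pd1116 against pd1245 on LP and 0 for diet in pd1245, against 3 each, and 2 for diet in EK and 2 for the diet response of pd1116 against EK, against 0. Diet in EK gave 1 without a filter and 1 with DESeq2. DESeq2 gave 1 for each diet response of the first experiment and 2 for diet in the adapted line, and no filter gave 1 for the diet response of pd1116 against pd1245. In each of these the cause was not tested. The replicate numbers did not pair the libraries; the replicate block also left sp7 for diet in pd1116 at an adjusted p of 0.0536 and sparc in pd1116 against EK on LP at 0.0677.

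Over all genes, counts also moved. Leaving out 1 library, genes called ran from 5296 to 7845 in pd1245 against EK on LP and 379 to 2169 on HP (947 with all libraries). They ran from 752 to 2968 in pd1116 against EK on LP. In pd1116 against pd1245 they ran from 2288 to 5899 on LP and 1549 to 4557 on HP (2699). For diet they ran from 520 to 3506 in pd1116, 1278 to 5810 in pd1245 and 1 to 175 in EK. With only the groups compared, genes called numbered 3310 in pd1245 against EK on LP (7232 with all groups), 3192 in pd1116 against EK on LP (1519), 993 on HP (659), 585 in pd1116 against pd1245 on LP (4590), 83 for diet in EK (35), 3636 in pd1116 (1545) and 0 in pd1245 (4346). The diet responses gave 369 for pd1245 against EK (1296), 598 for pd1116 against EK (1) and 18 for pd1116 against pd1245 (140). DESeq2 gave 2178, 154 and 491 for these and 128 for diet in EK; the replicate block gave 0 and 75 for the last 2 responses and 19 for diet in EK; no filter gave 57 for diet in EK and 3 for pd1116 against EK. In the second experiment, adapted against EK on HP gave 377 without a filter and 136 with only the groups compared (240). Diet in EK gave 93 without a filter, 149 with DESeq2 and 28 with the replicate block (13), diet in the adapted line 550 without a filter, 745 with DESeq2 and 702 with only the groups compared (314), and its diet response 1 with DESeq2 (0, with 894 genes at an unadjusted p under 0.05). In the second experiment bglap and runx2b were too low to test; runx2b averaged 0.123 to 0.301 CPM in its groups there, and 3.07 to 7.72 CPM in those of the first. bglap was too low in both.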
